A study of Nothobranchius furzeri with 8 samples.

Results

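The nuclear transfer RNAs that read the single codons of methionine and tryptophan were described in the killifish brain: the initiator tRNA-iMet-CAT, the elongator tRNA-Met-CAT and tRNA-Trp-CCA. They were chosen by name and not by a measured value, though with earlier results of these data known. They make up 3 of the 49 nuclear anticodons, 5 of the 66 nuclear transcripts and 18 of the 289 nuclear tRNA genes in the tables. tRNA-seq was carried out on single brains of 8 African turquoise killifish, a short-lived vertebrate, of the strain MZM-0410, which the methods name for all experiments unless stated otherwise. The 4 old fish were 39 weeks post hatching (wph) and the 4 young fish were 5 wph, with 2 males and 2 females at each age and no other treatment. The sequences of the 3 tRNAs were not used here.

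Both methionine tRNAs pair with the same codon but serve different steps of protein synthesis. The initiator is brought to the start codon by initiation factor eIF2, while the elongator is delivered by elongation factor eEF1A to every later methionine codon. Methionyl-tRNA synthetase charges both of them. Tryptophanyl-tRNA synthetase charges tRNA-Trp, which reads the single codon of tryptophan in the cytosol.

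Each read reports on the amount of a tRNA and on the state of its 3' end. RNA was kept mildly acidic so that the amino acid stayed attached, and oxidation with β-elimination then took the last nucleotide off uncharged molecules. A read ending in CCA was counted as charged and a read ending in CC as uncharged, and the charged share is CCA over the sum of CCA and CC reads. Reads ending in C, or in none of these ends, formed separate classes. Total reads per brain ranged from 1539158 to 3112101 in old brains and from 717858 to 2683877 in young brains. The brain called old female 1 stood apart: 24.6% of its nuclear reads ended in C, against 4.87% to 12.6% in the other 7 brains, and the comparisons of abundance, read ratio and charging of the nuclear tRNAs that it moved most are also given without it. In the E. coli tRNA-Lys spike-in, which was added after oxidation, 77.6% to 80.3% of the CCA and CC reads of old brains ended in CCA, against 76.8% to 77.6% in young brains.

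tRNA-Trp-CCA was the most abundant of the 3, and no difference between the ages passed the test for any of them. tRNA-iMet-CAT made up 1.91%, 1.73%, 1.90% and 2.01% of nuclear reads in old males 1 and 2 and old females 1 and 2, and 1.63%, 1.75%, 1.86% and 1.72% in young males 1 and 2 and young females 1 and 2. The ages overlapped, with a mean of 1.89% ± 0.12 in old and 1.74% ± 0.10 in young brains (SD, n = 4 each). Its log2 change, old over young, was 0.12 with a standard error of 0.063 (edgeR quasi-likelihood test, adjusted p = 0.256).

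tRNA-Met-CAT varied more between brains than either of the others. It took 2.01%, 1.81%, 1.35% and 2.11% of nuclear reads in the old brains, in the same order, and 2.26%, 1.75%, 1.90% and 1.90% in the young brains. Old female 1 was the lowest of all 8 and young male 1 the highest, so both extremes were single brains. The log2 change was −0.10 with a standard error of 0.12 (edgeR adjusted p = 0.613), and without old female 1 it became 0.017 (edgeR adjusted p = 0.974).

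tRNA-Trp-CCA had the narrowest spread relative to its level. Its share was 2.80%, 2.60%, 2.81% and 2.81% in the old brains and 2.71%, 2.55%, 2.61% and 2.59% in the young brains. Of the old brains, 3 lay above every young brain and old male 2 lay among the young ones. The log2 change was 0.074 with a standard error of 0.049 (edgeR adjusted p = 0.332). Over all nuclear anticodons, 3 of 47 tested passed in abundance, or 6.38%: His-GTG, Leu-CAG and Lys-CTT, which are named here because of their calls. Those shares, whose sum in a brain is fixed, are relative, and in whole brains fewer cells of a type and less RNA per cell cannot be told apart. None of the 3 members had shares that separated the ages, against 17.0% of the 47 anticodons.

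**Figure D1:**
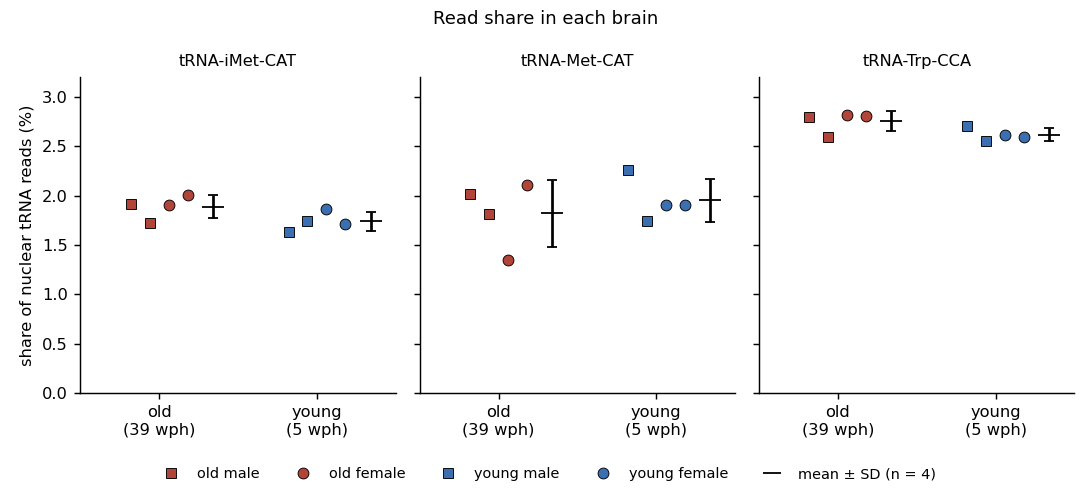
Share of nuclear tRNA reads (%, y axis) of tRNA-iMet-CAT, tRNA-Met-CAT and tRNA-Trp-CCA in each brain, old left of young, with squares for males, circles for females and the mean ± SD of 4 brains beside them. The ages overlap in every panel, and the lowest tRNA-Met-CAT value, 1.35%, is old female 1.

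Ranked by mean share among the 49 nuclear anticodons, tRNA-Trp-CCA stood 15th in old and 17th in young brains. tRNA-iMet-CAT stood 22nd in old and 26th in young brains, and tRNA-Met-CAT stood 23rd at both ages. The most abundant anticodon was Phe-GAA, with 5.40% in old and 4.93% in young brains, and the least abundant was Cys-ACA. The order changed when reads were divided by gene number, since tRNA-iMet-CAT has 7 genes in the annotation used, tRNA-Met-CAT has 3 and tRNA-Trp-CCA has 8. Per gene, tRNA-Met-CAT gave 0.606% of nuclear reads in old and 0.651% in young brains, the most of the 3. tRNA-Trp-CCA gave 0.344% in old and 0.327% in young brains, and tRNA-iMet-CAT gave 0.270% in old and 0.248% in young brains. Per gene, tRNA-Met-CAT ranked 8th of 49 in old brains and 6th in young brains, with Gly-GCC first at both ages.

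The initiator and the elongator were read at close to equal numbers in most brains. The ratio of tRNA-iMet-CAT to tRNA-Met-CAT reads was 0.951, 0.954, 1.41 and 0.953 in old males 1 and 2 and old females 1 and 2, and 0.721, 1.00, 0.978 and 0.902 in young males 1 and 2 and young females 1 and 2. Old males 1 and 2 and old female 2 lay between 0.951 and 0.954, whereas old female 1 had an excess of initiator reads and young male 1 an excess of elongator reads. The log2 ratio was higher by 0.23 in old than in young brains (exact permutation test, two-sided, p = 0.314, 4 against 4 brains, smallest possible p 0.0286), by 0.093 without old female 1 (exact p = 0.714) and by 0.13 without young male 1 (exact p = 0.743). tRNAs differ in how well they are ligated and reverse transcribed, so a ratio of reads is not a ratio of molecules.

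Counting only charged or only uncharged reads moved that balance. Both ratios come from the same counts as the charged shares given below and are no separate result. Among reads ending in CCA, the ratio was 0.812, 0.854, 1.55 and 0.839 in the old brains and 0.650, 0.913, 0.867 and 0.774 in the young brains. Charged elongator reads thus outnumbered charged initiator reads in every brain but old female 1. Among reads ending in CC, the ratio was 1.01, 0.954, 1.27 and 1.17 in the old brains and 0.853, 1.09, 1.15 and 1.19 in the young brains, with the initiator ahead in 6 of 8.

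**Figure D2:**
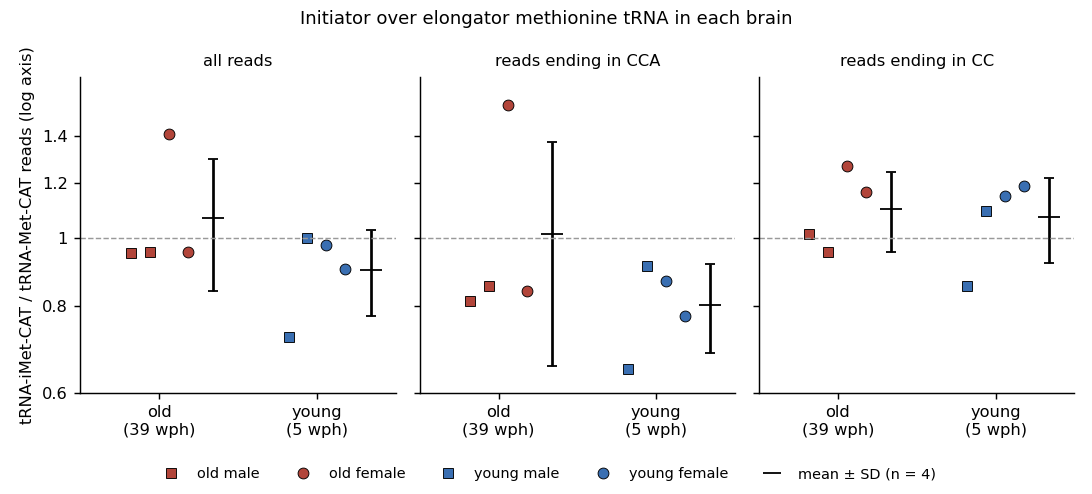
Ratio of tRNA-iMet-CAT to tRNA-Met-CAT reads (log y axis, dashed line at 1) over all reads, reads ending in CCA and reads ending in CC, old left of young, with the mean ± SD of 4 brains beside the points. Old female 1 is the highest point of every panel, at 1.41, 1.55 and 1.27.

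Charged shares of all 3 tRNAs had lower means in old than in young brains, without a difference that passed the test. For tRNA-iMet-CAT the charged share was 60.7%, 64.0%, 53.4% and 71.5% in the old brains, and 71.7%, 69.9%, 71.1% and 67.8% in the young brains. Old female 2 lay at the level of the highest young brains, while both old males and old female 1 lay below all of them. The mean was 62.4% ± 7.5 in old and 70.1% ± 1.7 in young brains (SD, n = 4 each), and the log2 odds of being charged differed by −0.49 with a standard error of 0.38 (edgeR adjusted p = 0.229).

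tRNA-Met-CAT was the most highly charged of the 3 in 7 of 8 brains. Its charged share was 65.8%, 66.5%, 48.4% and 77.7% in the old brains, and 76.9%, 73.6%, 76.5% and 76.3% in the young brains. The 4 young brains lay within 3.31 points of each other, while the old brains spanned 29.3 points and included both the lowest and the highest of the 8 values. The mean was 64.6% ± 12.1 in old and 75.8% ± 1.5 in young brains (SD, n = 4 each), with a log2 odds difference of −0.74 and a standard error of 0.38 (edgeR adjusted p = 0.123).

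tRNA-Trp-CCA had the lowest charged share in 7 of 8 brains. The share was 54.1%, 56.6%, 43.4% and 64.5% in the old brains, and 73.0%, 60.6%, 70.8% and 63.4% in the young brains. Here the young brains were spread as well, and old female 2 lay above young male 2 and young female 2. The mean was 54.6% ± 8.7 in old and 67.0% ± 5.9 in young brains (SD, n = 4 each), with a log2 odds difference of −0.76 and a standard error of 0.37 (edgeR adjusted p = 0.123). The widest 95% Wilson interval of any of these 24 shares reached 0.88 points to either side, from 10399 to 73586 reads, and covers counting error only, since reads without molecular identifiers are not independent molecules.

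Across the 47 nuclear anticodons tested, 1 passed in charging, or 2.13%, and 18 had an unadjusted p below 0.05. The one that passed was Cys-GCA, named here because of its call, and its estimate was the lowest, at −1.49, while the highest was that of Gln-TTG, at −0.19. Estimates for all 47 anticodons lay below 0, with a median of −0.69. Counted from the highest, tRNA-iMet-CAT had the 9th estimate. tRNA-Met-CAT and tRNA-Trp-CCA had the 33rd and 38th, near the median in value. Old female 2 was the one old brain at the young level for these tRNAs. Without it, the differences were −0.68, −1.03 and −0.95 for tRNA-iMet-CAT, tRNA-Met-CAT and tRNA-Trp-CCA, with edgeR adjusted p of 0.0399, 0.00599 and 0.00702. In that fit 80.9% of the 47 anticodons passed as well, so those calls were not particular to the 3 tRNAs. The edgeR fit draws its variance from all anticodons, which shift together within a brain, so these p-values do not rest on brains alone. On the charged shares of all brains, the exact permutation p was 0.114, 0.143 and 0.0857 in the same order (4 against 4 brains, 0.143 adjusted for each). Without old female 1, the differences were −0.30, −0.41 and −0.54 for tRNA-iMet-CAT, tRNA-Met-CAT and tRNA-Trp-CCA (edgeR adjusted p = 0.437, 0.373 and 0.354). None of the 3 separated the ages in charged share, against 2.13% of the anticodons.

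**Figure D3:**
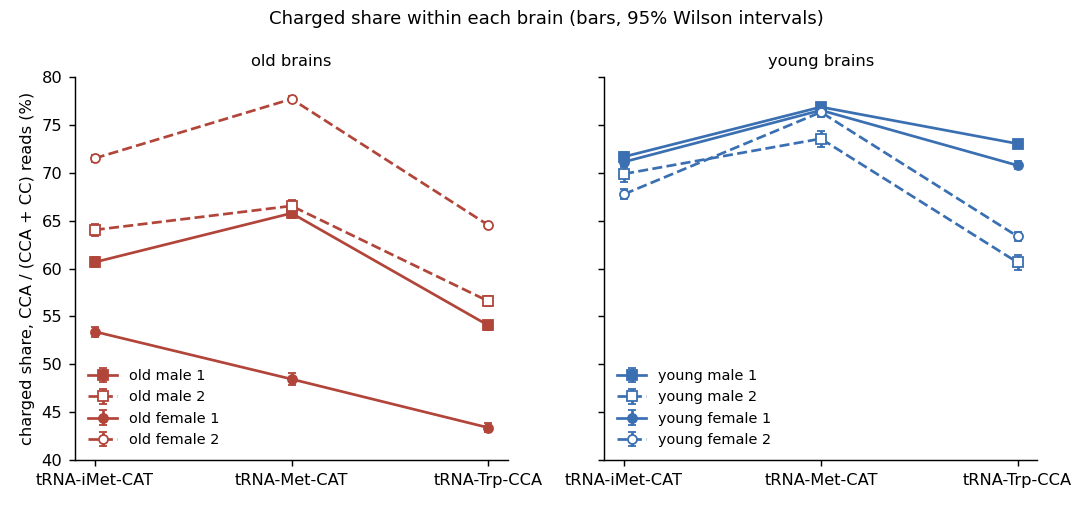
Charged share (%, y axis from 40 to 80) of the 3 tRNAs, with 1 line per brain, old brains in the left panel and young brains in the right, and 95% Wilson intervals as bars. Lines peak at tRNA-Met-CAT except in old female 1, which has 53.4% for tRNA-iMet-CAT, 48.4% for tRNA-Met-CAT and 43.4% for tRNA-Trp-CCA.

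Within a brain, where both tRNAs share a library, the initiator mostly had a lower charged share than the elongator. The initiator minus elongator difference was −5.12, −2.51, 4.96 and −6.20 points in old males 1 and 2 and old females 1 and 2, and −5.19, −3.67, −5.40 and −8.57 points in young males 1 and 2 and young females 1 and 2. It was negative in 7 of 8 brains, with a mean of −3.96 ± 4.02 points (SD, n = 8, exact sign-flip test, two-sided, p = 0.0313, and 0.0313 after adjustment over the 3 pairs). Without old female 1 the mean was −5.24 points, and without old male 1, old female 2, young male 1, young female 1 or young female 2 the adjusted exact p became 0.0625. The difference averaged −2.22 points in old and −5.71 points in young brains, a difference of 3.49 points that did not pass (exact permutation p = 0.229, n = 4 each). That difference was 1.10 points without old female 1 (exact p = 0.457) and 4.82 points without old female 2 (exact p = 0.0571). Reads ending in C, which the charged share leaves out, were more frequent for the initiator in the same 7 brains, by 1.71 to 4.16 points. In old female 1 they were less frequent, at −2.14 points. What part end shortening has in the initiator minus elongator difference was not tested.

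tRNA-Trp-CCA was charged less than tRNA-Met-CAT in 8 of 8 brains, with differences, tryptophan minus elongator methionine, from −13.2 to −3.84 points. The mean difference was −9.43 ± 3.93 points (SD, n = 8, adjusted exact sign-flip p = 0.0234). Set against the initiator, tRNA-Trp-CCA was lower in 7 of 8 brains, by a mean of −5.47 ± 4.08 points (adjusted exact p = 0.0313), and young male 1 was the exception with a difference of 1.36 points. Without old male 1, old female 2 or young female 2 the adjusted exact p of this second pair became 0.0625. Between the ages, the exact permutation p was 0.8 for the pair with the elongator and 0.143 for the pair with the initiator. Reads ending in C were more frequent for tRNA-Trp-CCA than for tRNA-Met-CAT in 8 of 8 brains, by 1.07 to 7.69 points. Against the initiator that difference ran from −0.648 points in young male 1 to 9.83 in old female 1. What part these ends have in either pair was not tested, and loss of the amino acid before oxidation was not measured.

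Each tRNA was next set against the median anticodon of its own brain, which removes the shift that all tRNAs of a brain share. On the log2 odds scale, tRNA-Met-CAT lay above the median in 8 of 8 brains, by a mean of 0.65 ± 0.25, and tRNA-iMet-CAT in 8 of 8, by 0.36 ± 0.18 (SD, n = 8, exact sign-flip p = 0.00781 each, the smallest possible, and 0.0117 adjusted over the 3 tRNAs). tRNA-Trp-CCA lay above it in 4 of 8, by a mean of 0.022 ± 0.10 (exact p = 0.57). A median has as many anticodons above it as below it. How many of the 47 lay above it in every brain was not counted. Whether this position is particular to the methionine tRNAs was therefore not tested. For tRNA-iMet-CAT the distance was 0.47, 0.37, 0.53 and 0.46 in the old brains and 0.013, 0.48, 0.20 and 0.33 in the young brains, and the ages overlapped (exact permutation p = 0.114, 0.343 adjusted over the 3 tRNAs). By mean charged share, tRNA-Met-CAT ranked 5th of 47 in old and 3rd in young brains, tRNA-iMet-CAT 8th in old and 12th in young brains, and tRNA-Trp-CCA 25th in old and 23rd in young brains. Gln-TTG ranked first in old brains with 75.7%, Ile-TAT ranked first in young brains with 83.2%, and Ser-CGA was last at both ages.

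**Figure D4:**
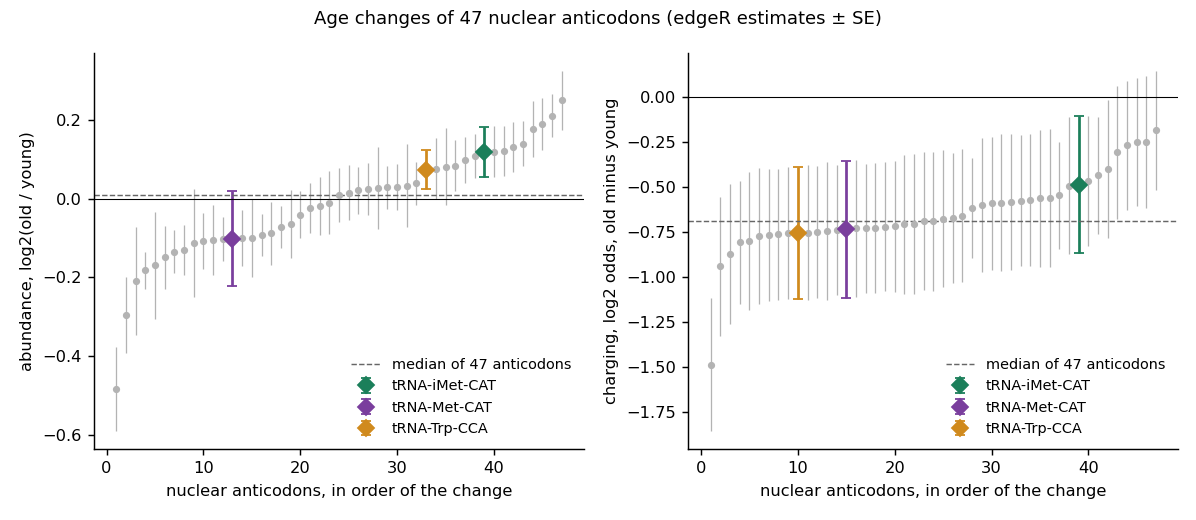
Differences between old and young brains for 47 nuclear anticodons in order of size, as edgeR estimates with bars of 1 standard error, for abundance (left, log2 of old over young) and charging (right, log2 odds, old minus young), with the 3 tRNAs as coloured diamonds and the median as a dashed line. In charging every estimate lies below 0, and tRNA-Met-CAT and tRNA-Trp-CCA, at −0.74 and −0.76, lie close to the median of −0.69.

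Reads with shortened 3' ends were another measure, outside the charged share. Among nuclear reads, old males 1 and 2 and old female 1 had the highest shares ending in C, at 12.6%, 12.1% and 24.6%. They also had the lowest charged shares, at 51.7%, 56.5% and 43.7%. Old female 2, with 6.71% ending in C and 63.8% charged, lay within the young range for both. Young male 1 had the lowest share ending in C, 4.87%, and the highest charged share, 70.1%. What part end shortening has in the charging difference between the ages was not tested. Reads ending in C made up 6.78%, 7.24%, 17.4% and 2.99% of tRNA-Met-CAT reads in the old brains, and 2.55%, 4.21%, 3.18% and 4.20% in the young brains. For tRNA-Trp-CCA they made up 11.2%, 11.5%, 25.1% and 5.69% in the old brains, and 3.62%, 7.85%, 4.72% and 8.24% in the young brains. Old female 1 was the highest and old female 2 lay within the young range for both. tRNA-iMet-CAT ranged from 5.67% to 15.2% in old and from 4.27% to 6.43% in young brains, and none of the 3 passed the exact permutation test (adjusted p = 0.103 to 0.114 over 6 comparisons). In the spike-in, the share ending in C was 1.55% to 1.95% in old and 1.57% to 1.87% in young brains.

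Reads with none of the 3 ends were few. They made up 1.27%, 1.14%, 2.52% and 1.04% of tRNA-Met-CAT reads in the old brains, and 0.804%, 0.955%, 0.714% and 0.856% in the young brains. They made up 1.18%, 1.19%, 2.26% and 0.906% of tRNA-Trp-CCA reads in the old brains, and 0.635%, 0.725%, 0.750% and 0.751% in the young brains. The ages did not overlap for either tRNA (exact permutation p = 0.0286 each, the smallest possible, and 0.0857 adjusted over 6 comparisons), but neither did they for 40.4% of the 47 anticodons. For tRNA-iMet-CAT young female 1, at 2.03%, overlapped the old range of 1.48% to 4.20% (exact permutation p = 0.0571, 0.103 adjusted).

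**Figure D5:**
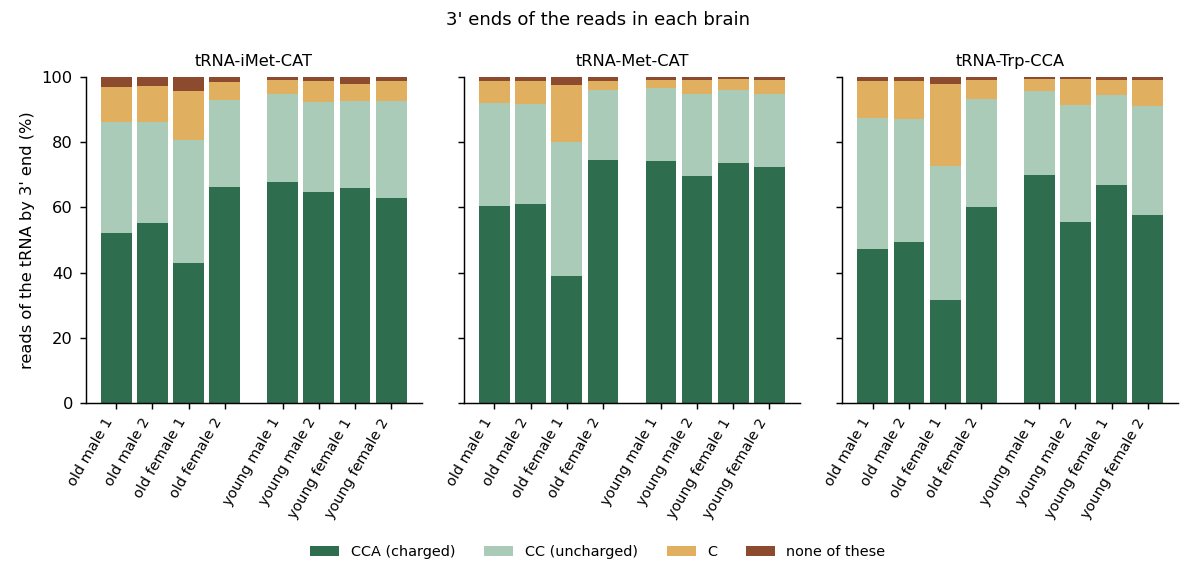
Reads of each tRNA split by their 3' end (%, y axis, 0 to 100) for the 8 brains, old left of young. Old female 1 has the smallest CCA part in every panel and the largest part ending in C, reaching 25.1% for tRNA-Trp-CCA.

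tRNA-iMet-CAT and tRNA-Trp-CCA were each counted as a pair of transcripts, and tRNA-Met-CAT as one. iMet-CAT-1 took 59.0% to 61.6% of initiator reads and Trp-CCA-1 took 67.3% to 69.0% of tryptophan reads, so the split between transcripts hardly varied among brains. iMet-CAT-1 was charged more than iMet-CAT-2 in 8 of 8 brains, by 1.60 ± 0.64 points on average (SD, n = 8, exact sign-flip p = 0.00781, 0.0156 adjusted over both pairs). Trp-CCA-1 differed from Trp-CCA-2 by 0.31 ± 0.45 points (n = 8, exact p = 0.0781). Reads shared by near-identical transcripts may be assigned to either, which was not tested. None of the 5 transcripts passed by age in abundance (9.09% of the 66 nuclear transcripts did) or in charging (1.52% did), both by edgeR, with adjusted p from 0.327 to 0.653 and from 0.124 to 0.242.

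The mitochondrial counterparts, which serve a separate ribosome and in vertebrates have synthetases of their own, gave a contrast for tryptophan. Mitochondrial tRNA-Trp, named Trp-CCA in the tables, had a charged share of 81.3%, 75.2%, 78.1% and 83.6% in the old brains, and 80.1%, 79.5%, 79.7% and 80.1% in the young brains. Young brains lay within 0.565 points of each other, and the ages overlapped (exact permutation p = 0.857, n = 4 each). It exceeded nuclear tRNA-Trp-CCA in 8 of 8 brains, by 18.9 ± 8.99 points (SD, n = 8, exact sign-flip p = 0.00781). The gap was 27.2, 18.6, 34.8 and 19.1 points in the old brains and 7.01, 18.9, 8.97 and 16.7 points in the young brains, which overlap (exact permutation p = 0.0571). Reads ending in C averaged 5.21% in old and 5.70% in young brains for mitochondrial tRNA-Trp. For nuclear tRNA-Trp-CCA they averaged 13.4% in old and 6.11% in young brains. Charging of other mitochondrial tRNAs was not examined here, so the gap is not shown to be particular to tryptophan. Mitochondrial tRNA-Met, which starts and elongates chains in mitochondria, had 66 to 469 reads per brain, and all but 2 of its reads in the 3' end table lacked the 3 ends, so no charged share could be given. Its share of mitochondrial reads was 0.139% to 0.206% in old and 0.0983% to 0.118% in young brains, without overlap (exact permutation p = 0.0286), as for 54.5% of the 22 mitochondrial anticodons counted.

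The synthetases of methionine and tryptophan belong to class I, and that of methionine is also part of the vertebrate multisynthetase complex. In charging, the median log2 odds difference between ages was −0.73 over the 24 anticodons of class I and −0.66 over the 23 of class II. In class I, 1 passed as lower in old brains (edgeR, 10 with an unadjusted p below 0.05). In class II none passed (edgeR, 8 with an unadjusted p below 0.05). The median was −0.71 over the 24 anticodons whose synthetases sit in the complex and −0.66 over the 23 others, beside −0.69 over all 47. In abundance, the class I list had a median of 0.015 with 1 passing as lower, and class II had a median of −0.011 with 1 passing in each direction. The complex list had a median of −0.044 with 2 passing as lower, and the others had a median of 0.015 with 1 passing as higher.

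Anticodons whose values followed the 3 tRNAs most closely over the 8 brains were found by Pearson's r as a description, the highest of 46 each time, from libraries that share their depth. In log2 share of nuclear reads, Arg-TCT and Gln-CTG were nearest to tRNA-iMet-CAT (r = 0.903 and 0.645), Arg-ACG and Leu-TAA to tRNA-Met-CAT (0.890 and 0.889), and Phe-GAA and Arg-TCT to tRNA-Trp-CCA (0.831 and 0.714). In log2 odds of charging relative to the median anticodon, Pro-CGG and Leu-TAA were nearest to tRNA-iMet-CAT (0.854 and 0.778), Ile-TAT and Val-TAC to tRNA-Met-CAT (0.974 and 0.892), and Gly-TCC and Ala-AGC to tRNA-Trp-CCA (0.740 and 0.690). Between the initiator and the elongator themselves r was −0.210 in share and 0.222 in charging.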

How the data were processed

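tRNA-seq was analysed for 4 old and 4 young brains, each from a separate fish, grouped by the sample labels. The authors trimmed reads with cutadapt 3.5, aligned and counted them with mim-tRNAseq, and deposited raw counts per anticodon and counts per transcript and 3' end, without normalization. The deposited end named CA is the full CCA end. Similar genes were merged before counting, at an identity given as 0.95 in the methods and 0.97 in the column names. The deposited number of genes per anticodon was used as given.

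Abundance was tested in edgeR 4.0.16 (R 4.3.3, quasi-likelihood, TMM, age as the factor) where 4 or more brains had 10 or more counts. Charging was tested on CCA and CC counts with 1 effect per brain, where every brain had 100 or more of them. P-values were adjusted by Benjamini-Hochberg over all anticodons tested, with a threshold of 0.05. Single values were compared by exact tests over 70 relabellings or 256 sign patterns in Python 3.11.15 (scipy 1.17.1), with 0.5 added to counts in log2 odds. Both fits were also run on simulated data, with changes larger than those estimated for the 3 members. In charging, the simulated brains held no shift common to all tRNAs. Total reads per brain ranged from 717858 to 3112101, and the members' own counts from 11463 to 79064 per brain. Alternatives were DESeq2 1.42.0, limma 3.58.1, other scalings, filters and denominators, sex, a replicate block and leaving out each brain. All 3 members and all their transcripts are named, with the highest and lowest anticodon of each ranking and the 2 anticodons most alike to each member. Members and lists were chosen with earlier results of these data known. All 8 brains carried 1 library pool name, so no batch could be separated.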

Additional observations from a re-analysis of the deposited data

Results flagged for a closer look

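In 64 groups of 4 brains of 1 age, a brain lay far from the other 3 in 6 cases, where chance would flag about 1 in 20 groups, or 3.2. The ratio of tRNA-iMet-CAT to tRNA-Met-CAT reads was 1.41 in old female 1, against 0.951 to 0.954 in the other old brains. In the same brain 2.52% of tRNA-Met-CAT reads had none of the ends CCA, CC and C, against 1.04% to 1.27%. Both values come from the brain with the most reads ending in C, 24.6% of nuclear reads, and what part that has in them was not tested.

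The share of tRNA-Trp-CCA was 2.60% of nuclear reads in old male 2, against 2.80% to 2.81% in the other old brains. The charged share of tRNA-Met-CAT was 73.6% in young male 2, the brain with the fewest reads, against 76.3% to 76.9% in the other young brains. In young female 1, 2.03% of tRNA-iMet-CAT reads had none of the 3 ends, against 1.01% to 1.09% in the other young brains. That excess lay in iMet-CAT-1, at 2.65% against 0.962% to 1.08%, while iMet-CAT-2 of the same brain was at 1.10%.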

How the results depend on the processing

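No abundance call for the 3 tRNAs arose under any alternative or with any 1 brain left out. Over all 47 anticodons, 3 passed in abundance, 6 with DESeq2, 6 with mitochondrial tRNAs in the fit, and 0 to 8 with a brain left out: 8 without old female 2, 1 without old male 1 or young female 2, and 0 without old male 2, young male 1, young male 2 or young female 1 (edgeR, with 13, 7, 9 and 9 at an unadjusted p below 0.05). With a brain left out, the log2 abundance change of tRNA-Met-CAT ranged from −0.18 to 0.017, positive only without old female 1. In charging, 1 of 47 passed, 2 with the median of each brain removed, and 0 to 38 with a brain left out: 38 without old female 2, and 0 without old male 1 (edgeR, 1 at an unadjusted p below 0.05). With the median removed, the charging difference of tRNA-iMet-CAT turned to 0.20 (limma adjusted p = 0.554), since the median it is set against was −0.69. With a brain left out, the charging difference ranged from −0.68 to −0.30 for tRNA-iMet-CAT, from −1.03 to −0.41 for tRNA-Met-CAT and from −0.95 to −0.54 for tRNA-Trp-CCA, and passed for each only without old female 2. The charged share of initiator minus elongator ranged from −5.24 to −3.30 points, and of tryptophan minus initiator from −6.45 to −4.82 points, so both kept their direction while the exact test lost the call without the brains named above. Between the ages, the initiator minus elongator difference in charged share ranged from 1.10 to 4.82 points, and their log2 read ratio from 0.093 to 0.29. In all, 55 of 61 other settings and 83 of 104 results with a brain left out were kept. A value was kept if it held its direction and side of the threshold. A number of anticodons passing, which has no direction, was kept if it stayed close to the main one.

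The replicate numbers, taken within each sex, joined different fish and were not treated as pairs. Deviations of same-numbered brains correlated from −0.366 to 0.197 in abundance and from −0.283 to 0.793 in charging. In charging only the brains numbered female 2 had a positive correlation. With the replicate block, 1 anticodon passed in abundance and 0 in charging (edgeR, 1 at an unadjusted p below 0.05), and the log2 abundance changes were 0.12, −0.12 and 0.074 for tRNA-iMet-CAT, tRNA-Met-CAT and tRNA-Trp-CCA, none of which passed. Their charging differences under the replicate block were −0.49, −0.74 and −0.76, none of which passed. For the initiator over elongator ratio the exact sign-flip test over 4 pairs gave p = 0.25, and for their charged share difference by age p = 0.125, the smallest it can give. Counting intervals reached at most 0.88 points to either side and cover counting error only. Charged shares of the 3 tRNAs spanned 3.31 to 29.3 points among brains of 1 age. What part depth has in that spread was not tested.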

Other observations

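The old minus young difference in charged share was −7.00, −13.4 and −13.1 points in females and −8.44, −9.06 and −11.5 points in males for tRNA-iMet-CAT, tRNA-Met-CAT and tRNA-Trp-CCA, with 2 brains per sex and age. Whether the sexes differed was not tested. Together the 3 tRNAs made up 6.46% ± 0.43 of nuclear reads in old and 6.31% ± 0.23 in young brains (SD, n = 4 each, exact permutation p = 0.543), and the sum of both methionine tRNAs was 3.71% ± 0.39 in old and 3.69% ± 0.17 in young brains (exact permutation p = 0.943).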
